A study of Rattus norvegicus with 12 samples.

Results

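Oligodendrocyte and myelin genes were examined in the arcuate nucleus (ARC) of the hypothalamus of adult rats. The 9 genes were Mbp, Mog, Mag, Mobp, Cnp, Cldn11, Ermn, Ugt8 and Sox10, of 14217 genes named on the array. They were taken as the probe sets to which the platform annotation gives 1 symbol alone, equal to one of these names. This found 18 of the 31042 tested probe sets, up to 3 for a gene, and the probe set with the highest mean over all arrays is called the main one.

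The arrays held laser-captured ARC from 6 control and 6 recuperated male Wistar rats aged 3 months, with 1 animal on each array. Recuperated animals were the offspring of dams fed 8% protein during pregnancy and were nursed from postnatal day 3 by control dams. Control animals came from control dams and were suckled by control dams. Both groups ate standard chow until the brains were collected, and the labels name no transgene or drug. Control litters held both sexes after culling, whereas recuperated litters were culled to fewer pups, all male. Maternal diet, nursing by dams of the other diet group and litter make-up therefore cannot be told apart.

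Oligodendrocytes are the glial cells that wrap axons of the central nervous system in myelin, a stack of membrane that speeds conduction and feeds the axon. Compact myelin is held together by proteins such as Mbp and Mobp, its edges and inner and outer faces carry others such as Cnp, Mag and Mog, and its membrane is rich in galactolipids made by Ugt8. In the hypothalamus, myelinated fibres are dense in tracts such as the fornix and sparser in the ARC, which adjoins the median eminence and the ventromedial nucleus.

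The values are log2 expression, so a difference of 1 is a doubling. Levels of different probe sets do not rank genes, because each probe set binds its target with its own strength. In tissue of mixed cells, fewer oligodendrocytes and less RNA per oligodendrocyte cannot be told apart.

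The array titled recuperated 4 stood apart from the other 11. On this array the 6 measured ARC markers, among them Npy and Ghrh, were all at their lowest of 12 arrays, with a mean of 1.04 above the array median against 3.47 to 3.94 on the others. The 3 measured markers of the ventromedial nucleus were all at their highest, with a mean of 3.30 above the array median against -0.79 to 1.18. Markers of neurons were at their highest there for 5 of 6 genes, and markers of tanycytes, the glia that line the third ventricle, at their lowest for 4 of 6. Pomc, one of the ARC markers, lay under the array median on all 12 arrays, so its rank carries little. Microglial markers had a mean of 0.68 above the array median on recuperated 4, against 1.08 to 1.59. The 3' over 5' signal of control transcripts, a measure of RNA quality, was 1.96 (log2) for beta-actin on that array against 1.04 to 1.90, and lay within the range of the others for GAPDH and hexokinase. The part of these differences in the myelin results was not tested, and group differences are given with and without that array.

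Signal for the 9 genes lay mostly above the array median. For 8 of the 9 genes the main probe set exceeded the median of its array on 12 of 12 arrays, and for Sox10 on 8 of 12. All 9 exceeded it on at least 6 arrays, and so did 9046 of the 14217 named genes. The main probe set is the brightest of its gene. Of all 18 probe sets, 16 did so, the others being 1369609_at of Cldn11 (3 of 12) and 1368857_at of Ugt8 (0 of 12). The Schwann cell markers Prx and Pmp2, which mark peripheral myelin, exceeded the array median on 0 of 12.

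Levels of the myelin genes did not separate the groups at the study's threshold of 1.3-fold with P under 0.05. With limma, 0 of the 9 genes passed it in either direction. Of all 14217 named genes, 87 were higher and 172 lower in recuperated animals, as were 1.2% and 1.27% of all tested probe sets. Without recuperated 4, 0 of 9 passed again. Of all named genes, 125 were then higher and 160 lower, as were 1.47% and 1.33% of all tested probe sets. At an unadjusted p under 0.05 alone, limma and the methods' t-test each called Cnp among the 9 with 12 arrays, and limma called 0 of 9 without recuperated 4. At an adjusted p under 0.05 limma called 0% of the probe sets with 12 arrays and 0% without recuperated 4, while 1071 and 1135 had an unadjusted p under 0.05. The methods' t-test also called 0 after adjustment, with 1063 at an unadjusted p under 0.05. Control and recuperated values overlapped for all 18 probe sets, and 0.119% of all tested probe sets had groups that did not overlap.

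The number of genes with a lower mean depended on which arrays were used. The median log2 fold change of the 9 stayed below 0 on leaving out each array, from -0.21 to -0.003. With 12 arrays, 7 of 9 genes had a lower mean in recuperated animals, with a median log2 fold change of -0.095. Of all named genes, 60.3% were lower and their median was -0.04. Without recuperated 4, all 9 were lower, with a median of -0.21, where 57.8% of all named genes were lower and their median was -0.029. Leaving out other single arrays gave 5 to 8 of 9 lower, the 5 without control 3 or recuperated 1. By probe set, 13 of 18 were lower with 12 arrays and 16 of 18 without recuperated 4, beside 56.6% and 56.3% of all tested probe sets. Probe sets of a gene share their transcript, and the 9 genes share their cell type, so these are not independent counts.

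**Figure D1:**
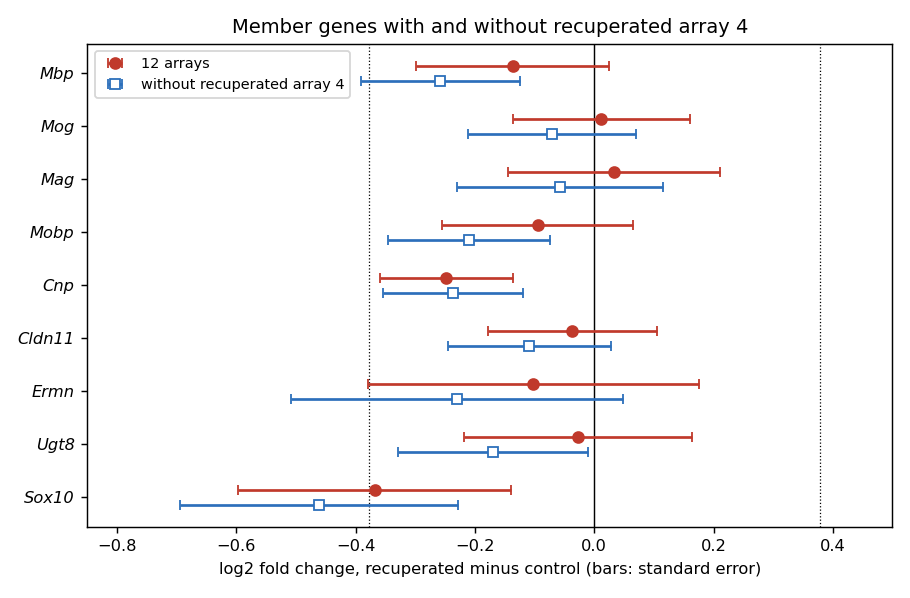
Log2 fold change of each main probe set, recuperated minus control, with its standard error from limma. Filled circles use 12 arrays and open squares leave out recuperated array 4, and the dotted lines mark 1.3-fold. No gene passed 1.3-fold with P under 0.05, and every open square lies to the left of 0.

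Of the proteins of compact myelin, Mbp, the basic protein that binds the cytoplasmic faces of the membrane together, ran from 11.18 to 11.79 in control arrays (median 11.46) and from 11.17 to 11.97 in recuperated arrays (median 11.23). The top recuperated value was recuperated 4, and the other 5 recuperated arrays all lay between 11.17 and 11.32. Control arrays averaged 11.47 ± 0.25 (SD, n = 6) and recuperated arrays 11.35 ± 0.31 (SD, n = 6). The log2 fold change was -0.14 with a standard error of 0.16, which was within the spread between arrays (exact two-sided permutation p = 0.413). Without recuperated 4 the recuperated mean was 11.23 ± 0.06 (SD, n = 5), and the log2 fold change was -0.26 with a standard error of 0.13. The exact permutation p was then 0.0498, whereas limma gave an unadjusted p of 0.0742.

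The call for Mbp therefore rested on leaving out 1 array and on the choice of test. A further probe set of Mbp, 1387341_a_at, followed the main one, 1368810_a_at, across the arrays (r = 0.925) and gave log2 fold changes of -0.23 with 12 arrays and -0.37 without recuperated 4 (exact permutation p = 0.292 and 0.0541). Without recuperated 4, limma gave 1387341_a_at an unadjusted p of 0.0426, at less than 1.3-fold. The 2 tests thus fell on opposite sides of 0.05 for the 2 probe sets. The dimmer 1383479_at gave 0.03 with 12 arrays and -0.14 without recuperated 4.

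Mobp, a small basic protein of compact myelin, ran from 12.33 to 12.79 in control arrays (median 12.56) and from 12.08 to 13.08 in recuperated arrays (median 12.52). Recuperated 4 was again the highest of all arrays and recuperated 5 the lowest. The log2 fold change was -0.10 with a standard error of 0.16 (exact permutation p = 0.556), and -0.21 without recuperated 4 (p = 0.104 by the same exact test). Its other probe sets differed in direction. The log2 fold change of 1370500_a_at was -0.23, and -0.43 without recuperated 4, and that of the dim 1368263_a_at was 0.29, and 0.16 without that array.

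Among proteins of noncompact and outer myelin, Cnp differed most clearly between the groups. Cnp, a cyclic nucleotide phosphodiesterase that keeps cytoplasmic channels of myelin open, ran from 10.47 to 10.77 in control arrays (median 10.59) and from 10.23 to 10.59 in recuperated arrays (median 10.35). Of the recuperated arrays, recuperated 5 at 10.59 alone lay above the lowest control value. Control arrays averaged 10.60 ± 0.13 (SD, n = 6) and recuperated arrays 10.37 ± 0.12 (SD, n = 6).

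The log2 fold change of Cnp was -0.25 with a standard error of 0.11, which is under 1.3-fold. It exceeded the spread between arrays for this gene alone (exact permutation p = 0.0152), and did not pass limma's test after adjustment over all probe sets (unadjusted p = 0.0418, adjusted p = 0.999). Without recuperated 4 it was -0.24 (exact permutation p = 0.026, limma unadjusted p = 0.0632). Leaving out each array in turn kept the exact permutation p between 0.00216 and 0.026, while limma's unadjusted p ranged from 0.0159 to 0.0909. The other Cnp probe set, 1387897_at, did not follow the main one across the arrays (r = -0.041) and had a log2 fold change of -0.13 (exact permutation p = 0.357), and -0.09 without recuperated 4. Cnp was thus the 1 gene of 9 that was lower at an exact permutation p under 0.05, where 2.3% of all probe sets were lower at that level. Without recuperated 4 there were 2 of 9, Cnp and Mbp, where 2.16% of all were.

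Mag, an adhesion molecule on the inner myelin face beside the axon, ran from 7.18 to 8.11 in control arrays (median 7.47) and from 7.17 to 8.03 in recuperated arrays (median 7.54). The ranges nearly coincided, with control 4 the highest and recuperated 4 next. Recuperated minus control was 0.03 on the log2 scale with a standard error of 0.18 (exact permutation p = 0.866), and -0.06 without recuperated 4.

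Mog, a glycoprotein of the outermost myelin surface, ran from 7.06 to 7.62 in control arrays (median 7.18) and from 6.90 to 7.69 in recuperated arrays (median 7.23). Recuperated 4 was the highest and control 5 followed it. Recuperated minus control was 0.01 on the log2 scale with a standard error of 0.15 (exact permutation p = 0.942), and -0.07 without recuperated 4. The signs of Mag and Mog turned without that array and also without some others, and both values were smaller than their standard errors.

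Cldn11, the claudin that seals the layers of myelin with tight junctions, ran from 11.03 to 11.68 in control arrays (median 11.27) and from 10.97 to 11.67 in recuperated arrays (median 11.28). The groups covered almost the same range. Recuperated minus control was -0.04 on the log2 scale with a standard error of 0.14 (exact permutation p = 0.786), and -0.11 without recuperated 4. A dim Cldn11 probe set, 1369609_at, gave -0.41 (exact permutation p = 0.225), and -0.46 without recuperated 4. It passed 1.3-fold with an unadjusted limma p under 0.05 in 2 alternatives, at -0.70 with array weights (limma adjusted p = 0.937) and at -0.59 without recuperated 5 (limma adjusted p = 0.995).

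Ermn, a cytoskeletal protein of mature oligodendrocytes that binds actin, had the widest spread of the 9 genes in both groups. It ran from 8.27 to 9.88 in control arrays (median 8.94) and from 8.01 to 9.59 in recuperated arrays (median 8.97). Control 3 was the highest and recuperated 1 the lowest. On the log2 scale the difference was -0.10 with a standard error of 0.28 (exact permutation p = 0.755), and -0.23 without recuperated 4. The similar probe set 1382382_at gave -0.10 and -0.23, and followed the main one across the arrays (r = 0.882). The remaining probe set, 1395447_at, gave 0.19 and 0.02 with r = 0.465, and the mean over all Ermn probe sets was -0.002.

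Ugt8, the enzyme that adds galactose to ceramide to make the main myelin lipid, ran from 9.13 to 10.12 in control arrays (median 9.60) and from 9.24 to 10.33 in recuperated arrays (median 9.48). Recuperated 4 was the highest, and the other recuperated arrays lay at or under 9.65. On the log2 scale the difference was -0.03 with a standard error of 0.19 (exact permutation p = 0.89), and -0.17 without recuperated 4 (exact permutation p = 0.314). A further Ugt8 probe set, 1368857_at, lay under the array median on all 12 arrays.

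Sox10, the transcription factor that keeps oligodendrocyte identity and switches on myelin genes, lay near the array median. It ran from 6.14 to 7.13 in control arrays (median 6.55) and from 5.24 to 6.71 in recuperated arrays (median 6.37). Recuperated 5 was far below the rest, and control 4 was the highest. On the log2 scale the difference was -0.37 with a standard error of 0.23 (exact permutation p = 0.197), and -0.46 without recuperated 4 (exact permutation p = 0.0866), both within the spread between arrays. Without recuperated 5 it was -0.18, and Cnp at -0.30 was then the most negative of the 9 genes.

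**Figure D2:**
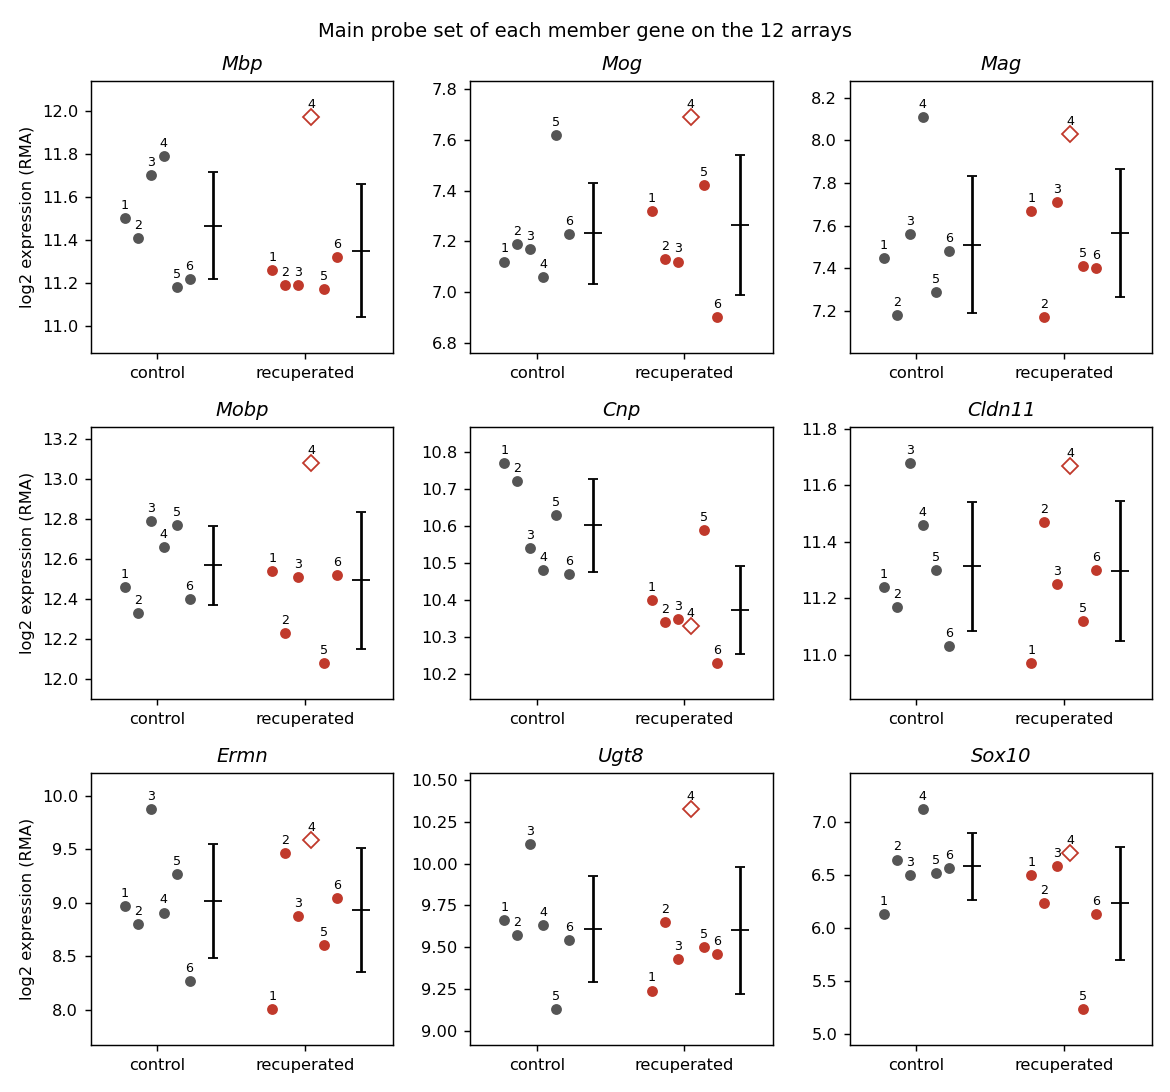
Log2 expression (RMA) of the main probe set of each gene on every control and recuperated array, with 1 panel per gene, the group mean and its SD. Recuperated array 4 is the highest of 12 for Mbp, Mog, Mobp and Ugt8, and the groups overlap in every panel.

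Myelin RNA on recuperated 4 was high for most but not all of the genes. It was the highest of the 12 arrays for 4 of 9 genes and the second highest for 4 more, with Cnp the exception in 11th place. Over all genes named on the array, 13.2% were highest on recuperated 4, and among those brighter than the array median on 6 or more arrays 16.4% were highest and 23.6% were first or second. For 10 of the 18 probe sets recuperated 4 was the highest. The mean deviation of the 9 genes from their own means was 0.41 on that array, against -0.24 to 0.27 on the others. The other oligodendrocyte lists are described below. The mean deviations of precursor genes (0.246) and other sheath proteins (0.219, others up to 0.210) were also highest on recuperated 4. Those of lineage transcription factors (0.216, others up to 0.287), other mature genes (0.097, up to 0.216) and lipid enzymes (0.024, up to 0.225) were not. By gene, that array was the highest for 1 of 10 precursor genes and 5 of 16 sheath proteins. It was so for 5 of 13 transcription factors, 5 of 16 other mature genes and 2 of 10 lipid enzymes. Each count stands beside the 13.2% of all named genes. The mean deviation of the 4 endothelial markers was highest on recuperated 4 too, at 0.262. Of the 4, 1 was itself highest there, and it exceeded the array median on 4 of 12 arrays. The 2 that exceeded it on at least 6 arrays ranked 5 and 7 of 12 on recuperated 4. Neuronal markers deviated there by 0.71, ventromedial markers by 2.98, ARC markers by -2.43, tanycyte markers by -1.41 and microglial markers by -0.65, and the part of any of these in the myelin values was not tested.

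Recuperated 5 lay at the other end. It was the lowest of all arrays for 3 of 9 genes, Mbp, Mobp and Sox10, where 16% of all named genes were lowest on it. The mean deviation of the 9 genes there was -0.24. Spread in the recuperated group was smaller without recuperated 4. The median SD over the 9 genes was 0.248 in control and 0.309 in recuperated arrays, and 0.201 in recuperated arrays without that one, beside 0.254, 0.300 and 0.275 over all named genes.

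**Figure D3:**
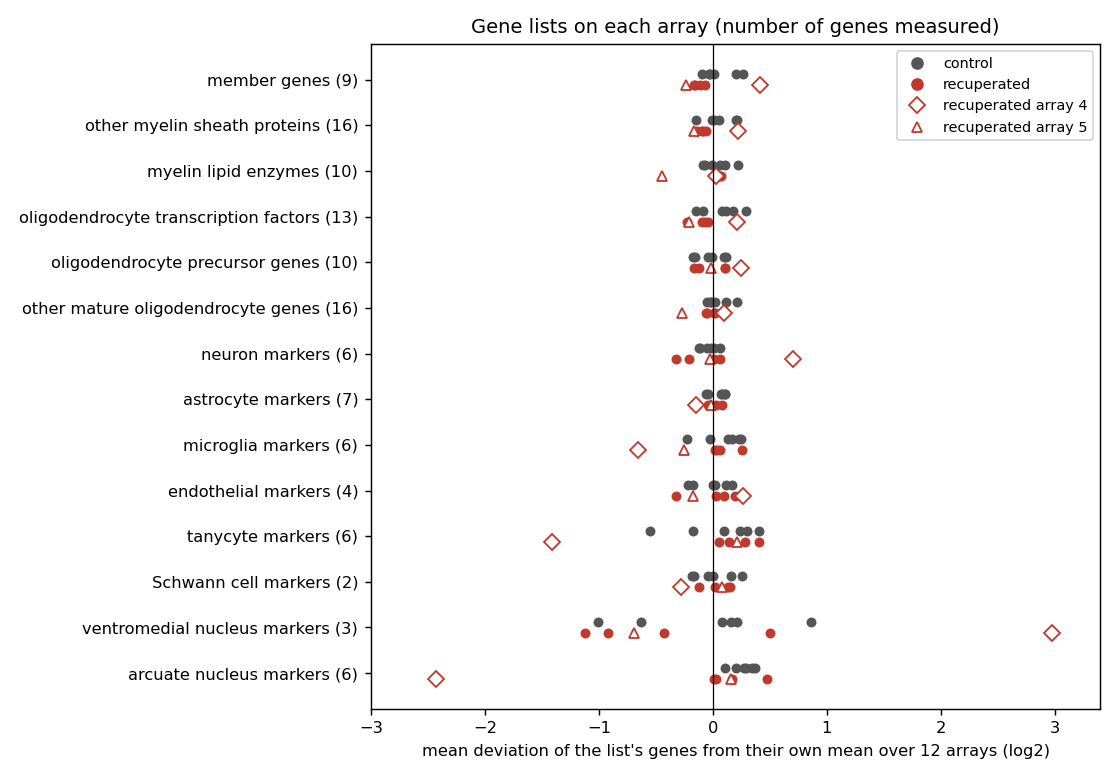
Mean deviation (log2) of the genes of each list from their own means over 12 arrays, with a point for every array, grey for control, red for recuperated, and open symbols for recuperated 4 and 5. Recuperated 4 is the highest point for the myelin genes at 0.41, for neuronal markers at 0.71 and for ventromedial markers at 2.98, and the lowest for ARC markers at -2.43. By this mean it is also the highest for precursor genes, other sheath proteins and endothelial markers. Only 1 of 10 precursor genes and 1 of 4 endothelial markers were themselves highest there. It is not the highest for lineage transcription factors, other mature oligodendrocyte genes or myelin lipid enzymes.

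The genes of this family moved together across the arrays only in part. Over the 36 pairs of main probe sets the median Pearson r across 12 arrays was 0.302, with 28 positive, and without recuperated 4 it was 0.14, with 25 positive. Pairs of all genes of that brightness had a median r of 0.022. Median Spearman rho was 0.198 with 12 arrays and 0.046 without recuperated 4. The arrays share tissue, dissection and normalization, and no batch was named in the labels, so values within batches could not be given.

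After adjustment over the 36 pairs, 2 passed. Cldn11 and Ermn had r = 0.918 and rho = 0.925 over 12 arrays (permutation test, p = 6e-05, adjusted p = 0.00216), and r was 0.854 without the 2 arrays farthest from the median of Cldn11 and 0.914 without recuperated 4. Mbp and Ugt8 had r = 0.805 and rho = 0.734 (permutation test, p = 0.00172, adjusted p = 0.031), with 0.778 and 0.665 on leaving out arrays in the same way. By Spearman's rho the pair of Mbp and Ugt8 missed the threshold (permutation test, adjusted p = 0.151). Median r against the other 8 genes was lowest for Cnp, at -0.122, and was 0.59 for Mbp and 0.52 for Mobp. Without recuperated 4 the lowest was that of Mog at -0.206, with Cnp at -0.006, Mbp at 0.489 and Mobp at 0.344.

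**Figure D4:**
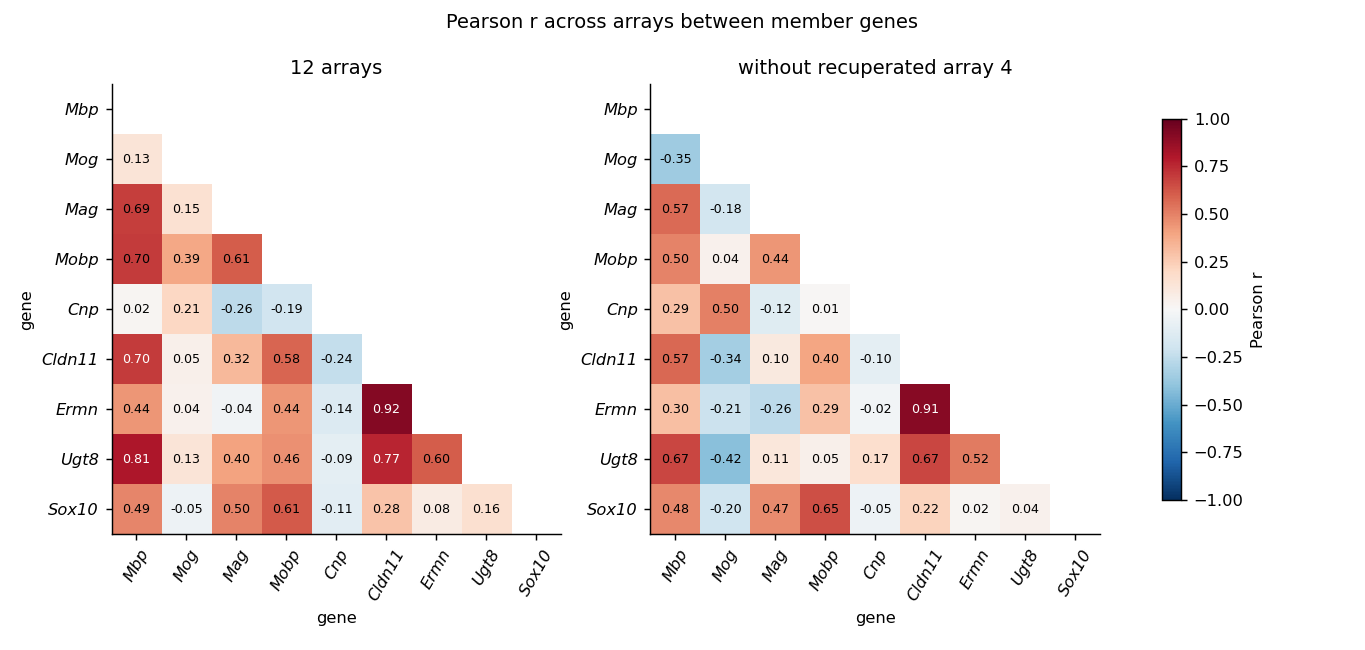
Pearson r across arrays for each pair of the 9 genes, with 12 arrays on one side and without recuperated array 4 on the other, on a colour scale of r. With 12 arrays the pairs of Cnp lie between -0.258 and 0.21, and the pair of Cldn11 and Ermn is at 0.918, and at 0.914 without that array.

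Promoter sequence from RefSeq (build GRCr8) was matched by symbol for 6 of the 9 genes, giving 7 promoters of 250 bases before to 50 after the start. They were searched on both strands for AACAAAG and AACAATG, letters bound by Sox factors, the family of Sox10. The letters were chosen with these sequences in view. The promoters of Mobp, which held the most matches, and of Cnp, the gene with the clearest difference, are shown with matches in capitals, and CTTTGTT is AACAAAG read on the opposite strand. Mobp lies on the + strand at chr8:128746982-128747281 and Cnp on the + strand at chr10:86011254-86011553.
Mobp: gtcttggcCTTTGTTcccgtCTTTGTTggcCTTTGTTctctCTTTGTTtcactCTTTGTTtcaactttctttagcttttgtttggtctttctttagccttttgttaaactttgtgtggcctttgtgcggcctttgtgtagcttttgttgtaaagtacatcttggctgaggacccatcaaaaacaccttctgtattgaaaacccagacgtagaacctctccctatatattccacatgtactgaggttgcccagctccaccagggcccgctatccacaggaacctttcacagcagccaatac
Cnp: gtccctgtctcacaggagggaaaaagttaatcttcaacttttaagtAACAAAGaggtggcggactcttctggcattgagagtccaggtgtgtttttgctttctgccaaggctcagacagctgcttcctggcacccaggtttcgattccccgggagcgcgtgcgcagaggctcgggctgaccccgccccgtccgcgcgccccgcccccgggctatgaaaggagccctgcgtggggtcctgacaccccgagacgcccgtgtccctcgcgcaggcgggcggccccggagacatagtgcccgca

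The Mobp promoter held 5 matches to AACAAAG close together near its upstream end, and its GC content was 44.3%. These matches lie in a run of similar T-rich letters. The Cnp promoter held 1, at a GC content of 63.3%. Of all 33469 promoters, 5.98% held AACAAAG, 4.02% AACAATG and 9.7% either. AACAAAG occurred 4 or more times in 1, which is that of Mobp. That cut lies just under the 5 matches of Mobp, and the letters were chosen with its sequence in view. The count is therefore a description and no test. In all, 3 of the 7 held either motif, the third being a second start of Mbp. A match is a description of letters and says nothing of binding. The main probe sets of Mobp and Cnp had log2 fold changes of -0.10 and -0.25.

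Other genes of oligodendrocytes were grouped by role. Of 16 other proteins of the myelin sheath, 12 had a lower and 4 a higher mean in recuperated animals, with a median log2 fold change of -0.072, and -0.142 without recuperated 4. Over all named genes 60.3% had a lower mean, and 57.8% without recuperated 4. Of the 16, 1 fell past the threshold with 12 arrays and 1 without recuperated 4, where 1.21% and 1.13% of all named genes did. Ppp1r14a, an inhibitor subunit of myosin phosphatase that oligodendrocytes express, averaged 7.07 ± 0.37 (SD, n = 6) in control arrays and 6.64 ± 0.36 (SD, n = 6) in recuperated arrays. Its log2 fold change was -0.46 (exact permutation p = 0.0455, limma unadjusted p = 0.0362), and -0.53 without recuperated 4 (exact permutation p = 0.0303). The call was lost with the methods' t-test, and in limma on leaving out control 1, control 4, recuperated 1, recuperated 2, recuperated 5 or recuperated 6, with unadjusted p from 0.0136 to 0.0892 over the 12 fits that leave out 1 array. The 3 with the highest means did not pass, with log2 fold changes of -0.26 for Pllp, -0.01 for Gpm6b and -0.02 for Plekhb1, and -0.36, -0.05 and 0.01 without recuperated 4, in that order. They are membrane or membrane-bound proteins of myelin.

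None of the 10 measured myelin lipid enzymes passed the threshold by limma, where 0 had an unadjusted p under 0.05. The median log2 fold change was -0.035, and 0.003 without recuperated 4. Arsa, which removes sulfate from sulfatide, was at 0.06 and Degs1, a ceramide desaturase, at 0.05, and at 0.07 and 0.05 without recuperated 4. Acsbg1, an acyl-CoA synthetase, was at -0.16 (exact permutation p = 0.0281), and at -0.14 without recuperated 4 (exact permutation p = 0.0541). Recuperated 5 was the lowest array for 5 of these 10 genes, where 16% of all named genes were lowest on it.

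Of 13 transcription factors of the lineage, 9 had a lower mean, with a median of -0.123, and -0.227 without recuperated 4. These counts stand beside the 60.3% of all named genes that had a lower mean. Of the 13, 1 fell past the threshold with 12 arrays and 0 without recuperated 4, beside 1.21% and 1.13% of all named genes. Nkx6-2, a homeodomain factor of myelinating oligodendrocytes, averaged 7.59 ± 0.44 (SD, n = 6) in control arrays and 7.17 ± 0.19 (SD, n = 6) in recuperated arrays. Its log2 fold change was -0.44 (exact permutation p = 0.026, limma unadjusted p = 0.0317), and -0.42 without recuperated 4 (exact permutation p = 0.0584, limma unadjusted p = 0.0555). The limma call was also lost on leaving out control 4, control 5, recuperated 1, recuperated 2 or recuperated 3, with unadjusted p from 0.00855 to 0.0705. Id2, an inhibitor of differentiation, went from -0.23 (exact permutation p = 0.0649) to -0.31 (exact permutation p = 0.00649), and lay at 9.46 on recuperated 4. Id4, of the same kind, was at -0.07 and Myt1, a zinc finger factor of precursors, at 0.07, and at -0.07 and 0.12 without recuperated 4.

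Precursor genes and other mature oligodendrocyte genes gave 0 calls each by limma at the threshold, with 0 at an unadjusted p under 0.05 and 0 at an exact permutation p under 0.05 in each list. Of 10 precursor genes, 6 had a lower mean, with a median of -0.030, and -0.037 without recuperated 4. Pdgfra, the growth factor receptor that marks precursors, was at -0.05, Bcas1 at -0.06 and Ptprz1 at -0.05, and without recuperated 4 at -0.055, -0.127 and 0.016. Of 16 mature genes, 12 had a lower mean, with a median of -0.118, and -0.150 without recuperated 4. Apod, a lipid carrier, was at -0.12, Enpp2, which makes lysophosphatidic acid, at -0.11 and Gsn, an actin-severing protein, at 0.05, and without recuperated 4 at -0.205, -0.138 and 0.144. Over all named genes, 87 rose and 172 fell past the threshold, of 14217.

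The genes whose pattern over 12 arrays was most like the mean of the 9 were sought among 9037 candidates of the same brightness. They were Astn1, Hrh1, Ntng1, Cxxc4, Tp53bp2, Gabarapl1, Vamp1, Epha4, Arxes2 and Glrb, with r from 0.907 down to 0.847 over 12 arrays. Without recuperated 4, 4 of these were still among the 10 highest. The oligodendrocyte lists had 0 genes among the 10 in either case, but several ranked soon after. Chosen after their values were seen, these were Mal, a myelin proteolipid, at rank 24 (r = 0.808), Apod at 27 (r = 0.800) and Bcas1 at 30 (r = 0.795) over 12 arrays. Without recuperated 4 they ranked 95, 25 and 14. Hrh1 was 7.96 on recuperated 4 against 6.24 to 7.24 on the others, and Ntng1 was 7.95 against 5.87 to 7.25, so both were highest there like the leading myelin genes.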

How the data were processed

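RNA from laser-captured ARC was amplified and hybridised to Affymetrix rat expression arrays, each holding 1 animal. As one table, the authors deposited log2 expression values for 31099 probe sets, made with RMA (background correction, quantile normalization, median polish), for which the submitters' notes on processing list Affymetrix Expression Console, while the study's methods name GeneSpring GX. GC-RMA and GCOS values were not analysed here. RMA equalises the arrays, so a shift of all RNA would not be seen.

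From the deposited log2 values, 57 control probe sets were set aside, and for tests each array was centred on its median over the remaining 31042 (medians 6.21 to 6.3), following the methods, which set each chip to its 50th centile. Levels printed are as deposited. Groups were compared with limma 3.58.1 in R 4.3.3, without covariates and with Benjamini-Hochberg adjustment over all probe sets, and single genes with an exact two-sided permutation test (smallest possible p 0.00216) in Python 3.11.15 with scipy 1.17.1. Correlations used 100000 permutations. The p-values set the difference between groups against the spread between these samples, and precision is limited by how many arrays there are. The fit was tested on simulated data.

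In the annotation 20826 probe sets had 1 symbol, 436 several and 9780 none. Probe sets ending in a_at match several transcripts of a gene. The arrays come without a genome build, and coordinates are those of the RefSeq promoters.

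The members and lists were chosen with earlier results of these data known. Genes named were the 9 members, the 3 with the highest mean of each list, any past the threshold, and the 10 nearest in pattern. Pomc, Npy, Ghrh, Prx and Pmp2 are markers named beside results. Alternatives were other scalings, the methods' t-test, brighter probe sets only, blocking on the number in the array title, array weights, each array left out in turn, all probe sets of a gene and linear folds. Further checks of scaling, for likeness and for the highest array, were chosen after seeing the data. Listed genes without a probe set of their own were not analysed here.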

Additional observations from a re-analysis of the deposited data

Results flagged for a closer look

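Within each group of 6 arrays, the highest or lowest value was compared with its nearest neighbour for 45 named probe sets, 90 groups in all, and 10 values lay far from the rest by Dixon's test, where chance gives about 1 in 20 groups. Of these, 5 were on recuperated 4 and 2 on recuperated 5. Mbp was 11.97 on recuperated 4, where the next recuperated array was 11.32. Genes of the nearest pattern were also flagged as high on that array, with Hrh1 at 7.96, Ntng1 at 7.95 and Cxxc4 at 7.32. The next recuperated arrays were at 6.81, 6.6 and 6.37, in that order. Astn1 was flagged at 11.32 though the next recuperated array was at 11.12 and a control array reached 11.29. These genes were named for their likeness to the myelin genes over the same arrays, so their flags are not separate evidence. On recuperated 5, Degs1 was low at 8.78 and Pdgfra at 8.39. Among control arrays, Mog was high at 7.62 on control 5, Ppp1r14a was high at 7.81 on control 1, and Ptprz1 was low at 8.85 on control 4.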

How the results depend on the processing

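For the main probe sets of the 9 genes, 0 passed 1.3-fold with P under 0.05 in each of the 18 alternatives, although the Cldn11 probe set 1369609_at passed with array weights and without recuperated 5, and the median log2 fold change over them ranged from -0.21 to -0.003 on leaving out each array. Over all probe sets, 371 were higher and 395 lower at that threshold. The filter on dim probe sets gave 118 and 150, and the methods' t-test 243 and 263. Leaving out each array gave 342 to 476 higher and 352 to 622 lower, and 0 to 1 at an adjusted p under 0.05, the 1 being without recuperated 2. No subtraction of array medians gave 434 and 302, and quantile normalization 447 and 313. Genes near 0 turned sign. With array weights Mog was at -0.078 and Mag at -0.034. On leaving out each array, Mog ranged from -0.071 to 0.087, Mag from -0.057 to 0.153, Cldn11 from -0.109 to 0.034, Ermn from -0.243 to 0.080 and Ugt8 from -0.170 to 0.073, and the cause was not tested. Mbp, Mobp, Cnp and Sox10 stayed below 0 in all their alternatives, with ranges on leaving out each array of -0.258 (without recuperated 4) to -0.072 (without control 4), -0.210 (recuperated 4) to -0.020 (recuperated 5), -0.299 to -0.217 and -0.461 (recuperated 4) to -0.177 (recuperated 5). The median r among members fell to 0.14 without recuperated 4. Arrays with the same number in their titles did not deviate together (correlations from -0.162 to 0.08). Such correlations cannot exclude a pairing of arrays by that number. With the title number as a block, 452 probe sets were higher, 411 lower and 0 passed adjustment, the members' median was -0.095 and the limma p of Cnp 0.0958. Without median subtraction that p was 0.053. Dim probe sets such as 1368857_at of Ugt8 and 1369609_at of Cldn11 carry the least signal over the background.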
